A study of Mus musculus with 48 samples.

Results

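The comparison described here set fluoxetine (FLX) against imipramine (IMN) in mice with a single working copy of *Brd1*. Its members were the 8 amygdala libraries of *Brd1*+/- FLX mice and the 8 of *Brd1*+/- IMN mice, chosen by their sample labels, which makes 16 of the 48 libraries of the series. The series holds 6 groups of 8, namely wild type (WT) and *Brd1*+/- mice given vehicle, IMN at 10 mg/kg or FLX at 5 mg/kg. All mice were females of the strain labelled C57BL/6NTac-Brd1. Per the study's methods they were young adults, the *Brd1*+/- mice were heterozygous for a targeted deletion made with loxP sites around part of the gene, and every mouse had been injected on successive days and had gone through behavioural tests, the forced swim test last, before tissue was taken. A punch of the right amygdala from each mouse gave 1 library. The doses differ (5 against 10 mg/kg), so drug and dose cannot be told apart in any value below.

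FLX is a selective serotonin reuptake inhibitor: it blocks the serotonin transporter SERT, the product of *Slc6a4*. IMN is a tricyclic antidepressant that blocks SERT and, together with its metabolite desipramine, the noradrenaline transporter NET, the product of *Slc6a2*, and it also binds histamine, muscarinic and alpha-adrenergic receptors. The amygdala receives serotonin fibres from the raphe nuclei and noradrenaline fibres from the brainstem, and acute stress switches on immediate-early genes there, which neurons induce within minutes of activity. *Brd1* encodes a bromodomain scaffold protein of histone acetyltransferase complexes. The comparison asks whether a serotonin-selective and a mixed uptake blocker leave different transcript levels in the amygdala of mice short of this protein.

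Levels were read in TPM, a unit of transcript abundance that corrects read numbers for gene length and scales each library to a fixed sum. TPM keeps no depth, so the number of reads behind a value is unknown and no counting interval can be given. Differences are FLX minus IMN on log2(TPM + 0.1), tested with limma across all genes that reached 0.1 TPM in 8 or more of the 16 libraries. A gene was called at a Benjamini-Hochberg adjusted *p* under 0.05. The libraries detected 23420 to 26549 genes, none were identical, and their correlations across genes ran from 0.948 to 0.978. In bulk tissue, fewer cells of a type and less RNA per cell cannot be told apart.

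*Brd1* itself (ENSMUSG00000022387, chromosome 15, 88687034 to 88734233, minus strand, GRCm38) had nearly the same mean with either drug. It ranged from 18 to 27.2 TPM with FLX (median 24.4) and from 16.6 to 29.5 TPM with IMN (median 22.8). The groups overlapped along nearly their whole range. Mean levels were 23.5 ± 3.49 TPM with FLX and 23.4 ± 4.84 TPM with IMN (SD, n = 8 each), beside 26 ± 2.9 TPM in *Brd1*+/- vehicle mice (SD, n = 8). The log2 difference was 0.02, with a 95% interval of -0.26 to 0.31. A two-sided exact permutation test over 12870 arrangements gave *p* = 0.852, and 0.852 after Benjamini-Hochberg adjustment over the 2 genes tested this way, *Brd1* and *Fos*. The 12 genes of the BRD1 acetyltransferase complexes, which include the catalytic subunits *Kat6a*, *Kat6b* and *Kat7* and the related scaffolds *Brpf1* and *Brpf3*, had differences between -0.23 and 0.20. Of these, 4 lay above 0 and 0 had an unadjusted *p* under 0.05. *Kat7* measured 54.8 ± 7.29 TPM with FLX and 57.6 ± 8.88 TPM with IMN (SD, n = 8 each).

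Across the transcriptome no gene was called between the drugs. Of 23724 genes tested with limma, 0 were called (0%), and the smallest adjusted *p* was 0.656. At an unadjusted *p* under 0.05 stood 709 genes (2.99%), 304 higher (1.28%) and 405 lower with FLX (1.71%). A flat distribution would put 1186 genes there. At an unadjusted *p* under 0.01 stood 109 genes (0.459%), against 237 for a flat distribution. The median log2 difference of all genes was -0.01, and 47.1% of genes lay above 0. Of the total variance of 19408 genes averaging 1 TPM or more, 4.87% lay between the drugs, while 2 alike groups of 8 give 6.67% on average.

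The intervals say how large a difference could have been missed. The 95% interval lay within 2-fold either way for 16196 of the 23724 genes (68.3%) and within 1.5-fold for 10494 (44.2%). Among 13390 expressed multi-exon protein-coding genes, 81.4% lay within 2-fold and 58.3% within 1.5-fold. Their median interval reached 0.38 log2 units to either side. Genes that varied between punches had wide intervals: *Bdnf*, a neurotrophin of glutamatergic neurons, had an interval of -2.75 to 1.74, and *Pdyn*, which encodes prodynorphin, of -1.57 to 2.47.

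The punches differed in the tissue they held. The 8 markers of central amygdala neurons summed to 416 to 1866 TPM with FLX and 496 to 1727 TPM with IMN. The lowest sums were those of FLX replicate 2 and IMN replicate 6. A sum does not say which cells made the transcripts, so it does not show that every punch held central amygdala. The 10 markers of striatal projection neurons, cells of the neighbouring caudate putamen, summed to 326 to 12395 TPM with FLX (median 1335) and 397 to 11917 TPM with IMN (median 821). FLX replicate 2 and IMN replicates 2 and 6 stood apart with over 8000 TPM, and they formed the far end of the first principal component, which held 27.4% of the variance. In these libraries the 7 markers of cortical and basolateral glutamatergic neurons summed to 6.53, 18.9 and 237 TPM. The sum was 158 TPM in IMN replicate 5 and 277 TPM in IMN replicate 7, and 35.5 and 25.1 TPM in FLX replicates 4 and 6, beside the highest oligodendrocyte sums, 17992 and 15745 TPM. Choroid plexus genes summed to 20.3 to 29158 TPM with FLX and 18.3 to 3468 TPM with IMN, the top value being FLX replicate 8.

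None of the 14 cell type lists held a called gene, and 13 held no gene at an unadjusted *p* under 0.05. The highest median of these lists was that of ependyma, the ciliated lining of the ventricles, at 1.02 with 4 of 4 tested markers above 0, and 1.06 with 4 of 4 in WT mice (median sums 35.2 TPM with FLX and 12.4 TPM with IMN in *Brd1*+/- mice). It was 0.57 without the 3 striatum-rich libraries. All 8 oligodendrocyte markers lay above 0 (median 0.25), as did all 8 microglial markers (median 0.13), while the 5 red blood cell genes lay below (median -0.09). The 6 tested markers of thalamic and hypothalamic glutamatergic neurons had a median of -0.92, with sums of 8.81 to 216 TPM with FLX and 10.7 to 462 TPM with IMN. Without the 3 striatum-rich libraries their median was -1.55, and 4 of 6 were lower with FLX at an unadjusted *p* under 0.05. In that fit 892 of all 22976 genes were so too, against 405 of 23724 as reported, and the median of all genes was -0.045. The median of the striatal list went from 0.19 to 0.81 with 8 of 10 above 0. In WT mice all 8 oligodendrocyte markers again lay above 0 (median 0.30), but other lists went the other way. There 1 of 8 microglial, 5 of 5 red blood cell and 0 of 10 striatal genes lay above 0, the striatal median being -0.68. The thalamic and hypothalamic list had a WT median of 1.54, with 6 of 7 above 0. Its difference between genotypes had an unadjusted limma *p* under 0.05 for 3 of 7 markers, against 4.26% of all genes. Markers of a cell type move together with the tissue in a punch, so members of a list are not independent. The part of tissue makeup in the differences below was not tested beyond values from a fit with striatal, oligodendrocyte and choroid plexus scores as covariates, and from a fit without the 3 striatum-rich libraries, given beside several of the genes and lists below.

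**Figure D1:**
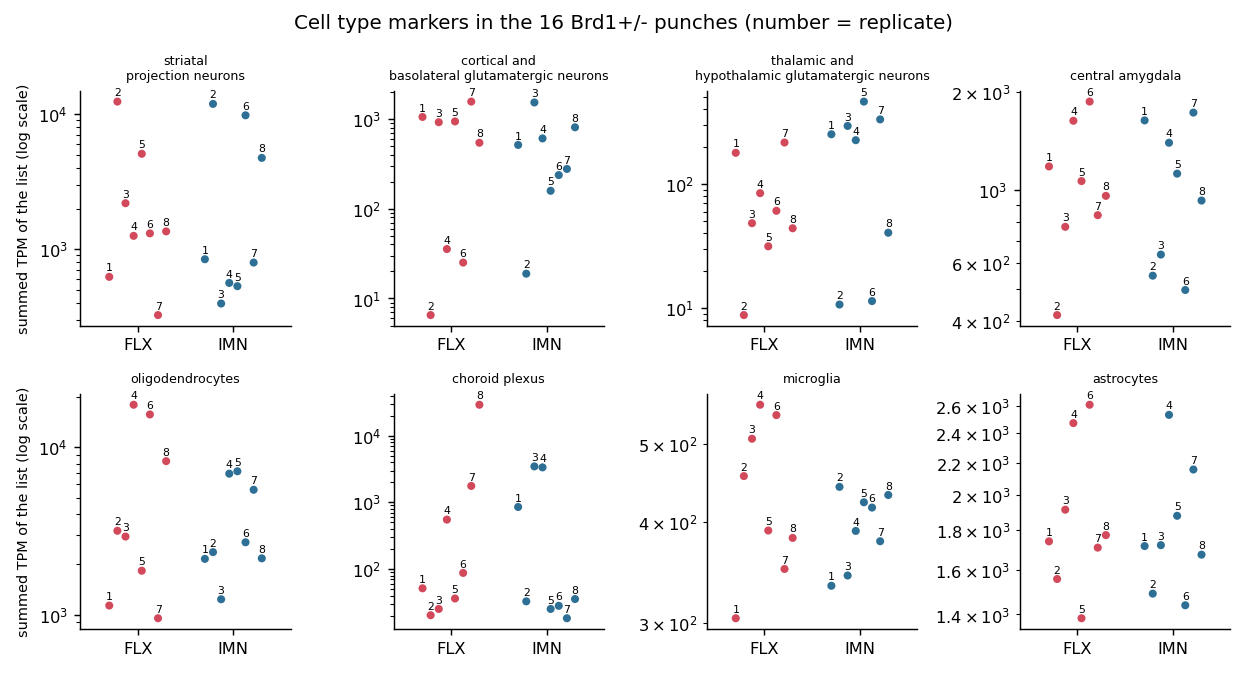
Summed TPM of 8 cell type marker lists (vertical axis, log scale) in each of the 16 *Brd1*+/- libraries, with replicate numbers beside the points. Striatal sums exceed 8000 TPM in FLX 2, IMN 2 and IMN 6, and FLX and IMN libraries overlap in every panel.

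The cell type marker with the smallest *p* was *Prkcd*, protein kinase C delta, which defines a class of GABAergic neurons in the lateral central amygdala and is also made by thalamic relay neurons. *Prkcd* (ENSMUSG00000021948, chromosome 14, 30595354 to 30626210, minus strand) ranged from 14.4 to 147 TPM with FLX (median 63.8) and from 8.4 to 35.7 TPM with IMN (median 15.1). Above every IMN library lay 5 FLX libraries, and the other 3 lay among them. Means were 66.6 ± 47.3 TPM with FLX and 18.7 ± 9.5 TPM with IMN (SD, n = 8 each), and 40.9 ± 34.8 TPM in vehicle mice (SD, n = 8). The log2 difference was 1.56 ± 0.47 (SE; 95% interval 0.58 to 2.55), with a limma adjusted *p* = 0.9997, so *Prkcd* was not called. It was 1.43 with marker scores as covariates and 1.6 without the striatum-rich libraries. Of the other central amygdala markers, *Calcrl*, a receptor subunit for the peptide CGRP, had 0.62, and *Sst*, *Tac2*, *Nts*, *Crh*, *Cartpt* and *Pnoc* lay between -0.30 and 0.01. In WT mice the *Prkcd* difference was 0.28, and the difference between genotypes, 1.29, had an interval of -0.11 to 2.68.

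Immediate-early genes bear on recent neuronal activity, and many carry in their promoters the sequence that the cAMP-responsive factor CREB binds. Promoter stretches are shown for *Fos*, the standard marker of neuronal activation, and for the 3 transcription factor genes of this list with an unadjusted *p* under 0.05. They come from RefSeq (GRCm38.p6) and run from 190 to 51 bases before the start of transcription, with capitals marking TGACG, the CREB half-site, on either strand.
Npas4, chr19:4990022-4990161, minus strand: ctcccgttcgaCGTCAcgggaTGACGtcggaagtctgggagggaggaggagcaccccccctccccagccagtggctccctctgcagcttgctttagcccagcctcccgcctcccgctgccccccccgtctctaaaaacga
Egr4, chr6:85513640-85513779, minus strand: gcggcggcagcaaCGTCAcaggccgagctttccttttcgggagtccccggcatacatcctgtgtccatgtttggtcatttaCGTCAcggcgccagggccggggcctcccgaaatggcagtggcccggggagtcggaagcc
Egr2, chr10:67537679-67537818, plus strand: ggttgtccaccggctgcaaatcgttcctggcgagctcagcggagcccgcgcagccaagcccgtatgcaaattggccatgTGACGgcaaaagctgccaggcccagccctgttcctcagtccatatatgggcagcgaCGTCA
Fos, chr12:85473700-85473839, plus strand: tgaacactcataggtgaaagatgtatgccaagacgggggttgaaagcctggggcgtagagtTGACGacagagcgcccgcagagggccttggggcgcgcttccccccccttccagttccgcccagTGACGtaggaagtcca
Each stretch held 2 matches. Of 17 list genes with a promoter sequence, 14 held TGACG on either strand in at least 1 window of 300 bases, and so did 17 of their 23 windows (73.9%), against 20.8% of all 32851 promoter windows. *Egr2* has 5 such windows, and its stretch comes from window 3. Its windows 1 and 2 held no match, while windows 3, 4 and 5 overlap and count the same 2 matches. A match describes the letters only.

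Most immediate-early transcription factors were higher on average with FLX, but none was called. Of 20 tested genes, 18 had a log2 difference above 0, as had 47.1% of all genes. Of these, 3 had an unadjusted *p* under 0.05, as had 1.28% of all genes in that direction. The median difference of the list was 0.31, against -0.01 over all genes. Neurons switch these genes on together, so the members are not separate observations. The median ran from 0.20 to 0.41 when each library was left out in turn, lowest without IMN replicate 2. With marker scores as covariates it was 0.29, with 6 of the list higher at an unadjusted *p* under 0.05. In that fit 657 of all 23724 genes were so too, against 304 as reported. Without the striatum-rich libraries the median was 0.25, with 1 of the list and 309 of all 22976 genes higher at that threshold. In WT mice the list had a median of 0.07, with 13 of 19 above 0, where 60.5% of all genes were.

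*Npas4*, a neuron-specific factor induced by calcium influx, ranged from 5.22 to 19.1 TPM with FLX (median 14.8) and from 4.43 to 16 TPM with IMN (median 6.55). Above 10 TPM lay 6 FLX and 2 IMN libraries. The log2 difference was 0.73 ± 0.31 (SE; interval 0.06 to 1.39; limma adjusted *p* = 0.9997). *Egr4*, a zinc-finger factor, ranged from 19.7 to 54.9 TPM with FLX (median 31.7) and from 6.11 to 32 TPM with IMN (median 23.2), a difference of 0.67 (0.03 to 1.31). *Egr2*, of the same family, ranged from 2.58 to 12.4 TPM with FLX (median 6.23) and from 0.718 to 9.03 TPM with IMN (median 3.21), a difference of 0.96 (0.03 to 1.88). The groups overlapped for all of them. Single omissions took the unadjusted *p* above 0.05 in 9 of 16 cases for *Npas4*, 7 for *Egr4* and 9 for *Egr2*. For *Npas4* it was largest without FLX replicate 3, with a value of 0.63. The same held for *Egr4* without FLX replicate 5 (0.56) and for *Egr2* without IMN replicate 5 (0.69). The lowest *Egr4* value over single omissions was 0.42, without IMN replicate 5. With marker scores as covariates the differences were 0.78, 0.73 and 1.02. Without the striatum-rich libraries they were 0.70, 0.79 and 1.01, and only that of *Egr4* had an unadjusted *p* under 0.05.

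*Fos* ranged from 4.2 to 43.5 TPM with FLX (median 34.7) and from 4.74 to 41.6 TPM with IMN (median 26.7). The lowest values of each group came from the striatum-rich libraries. The log2 difference was 0.21 (95% interval -0.89 to 1.3), with an exact permutation *p* = 0.746. It ran from -0.09 to 0.56 over the omission of each library. *Egr1* measured 70 ± 29.7 TPM with FLX and 62.1 ± 15.4 TPM with IMN (SD, n = 8 each), a difference of 0.09. *Nr4a1*, an orphan nuclear receptor, had 0.41 and *Fosb* 0.38. *Junb* had a fitted difference of 3.58 that cannot be read as a fold: the gene is listed at 0 in 4 IMN libraries and 1 FLX library and between 42.4 and 98.6 TPM in the others. It shares exons with *Prdx2* on the other strand, which lay between 218 and 327 TPM in the 16 libraries.

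**Figure D2:**
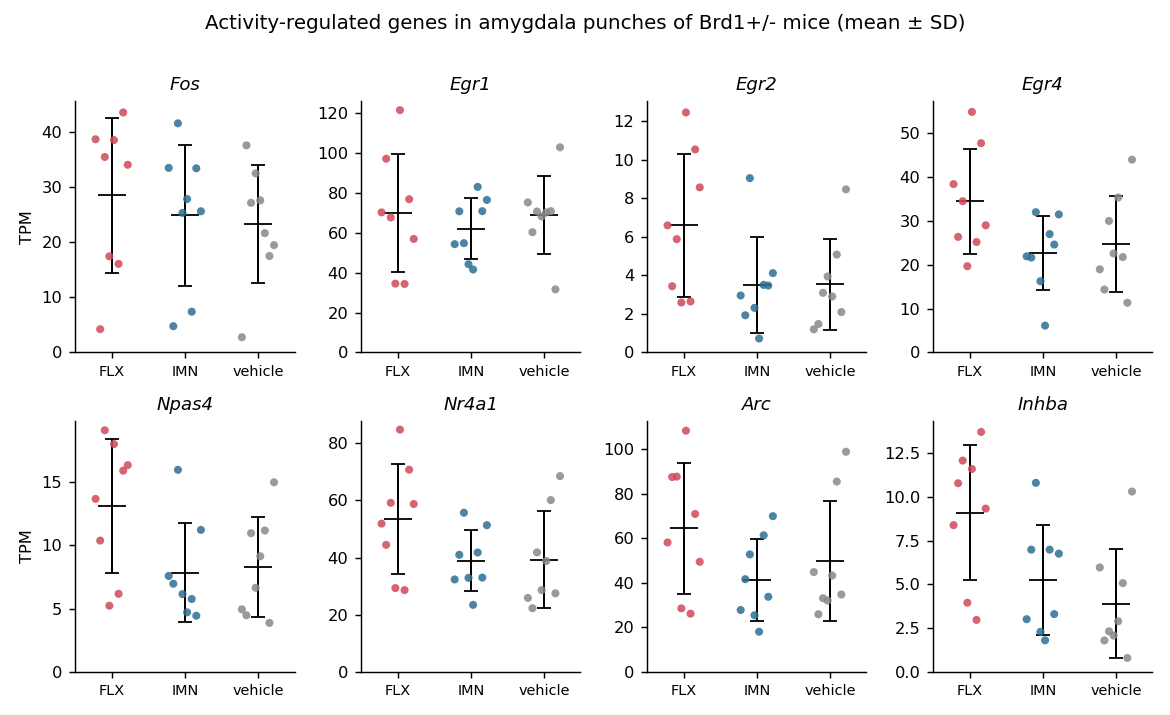
TPM (linear axis) of 8 activity-regulated genes in the *Brd1*+/- FLX, IMN and vehicle libraries, 8 points a group, with mean and SD as lines. FLX medians of *Npas4*, *Egr2* and *Egr4* lie above those of IMN while the groups overlap.

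Activity-induced effectors, the synaptic and secreted proteins made in response to activity, lay above 0 in 12 of 19 cases, with a median of 0.13. The median was 0.231 without FLX replicate 2, and 0.0771, 0.0829, 0.0831 and 0.0865 without FLX replicates 5 and 1 and IMN replicates 5 and 6. *Inhba*, which encodes an activin subunit, measured 9.1 ± 3.85 TPM with FLX and 5.24 ± 3.13 TPM with IMN (SD, n = 8 each). The difference was 0.86 (0.02 to 1.70), and 0.68 without IMN replicate 5. Its unadjusted *p* rose above 0.05 in 10 of 16 single omissions, that one included. *Arc*, which regulates AMPA receptor trafficking, had 0.62 (-0.08 to 1.32), *Bdnf* -0.50 and *Dusp1*, a MAP kinase phosphatase, 0.15. Of 25 genes of cAMP and CREB signalling, 0 had an unadjusted *p* under 0.05, and the median was -0.09. *Crem*, whose inducible product represses cAMP-responsive genes, had 0.52 (-0.04 to 1.08), *Creb1* 0.05 and the phosphodiesterase *Pde4b* -0.12. The 12 neurotrophic factors and receptors had a median of 0.04, and *Ntrk2*, the BDNF receptor, measured 248 ± 46.7 TPM with FLX and 249 ± 60.3 TPM with IMN (SD, n = 8 each).

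The transporters could not be compared. *Slc6a4* was listed at 0 in 6 FLX and 8 IMN libraries and reached at most 0.144 TPM, and *Slc6a2* reached at most 0.0974 TPM, so neither entered the test. The cell bodies that make both lie in the brainstem. Of 13 serotonin receptors, 3 lay above 0 and 1 was lower with FLX at an unadjusted *p* under 0.05. Over all genes the shares were 47.1% and 1.71%. The median of the list was -0.28. In WT mice 6 of 12 lay above 0 (median -0.05), beside 60.5% of all genes, and 0 were under 0.05. The 1 lower gene was *Htr2a*, an excitatory receptor of cortical neurons. It ranged from 2.01 to 19.2 TPM with FLX (median 5.23) and from 6.46 to 30.1 TPM with IMN (median 10.5). Below every IMN library lay 4 FLX libraries. The difference was -1.04 ± 0.47 (SE; interval -2.04 to -0.03; limma adjusted *p* = 0.9997). Single omissions took the unadjusted *p* of *Htr2a* above 0.05 in 8 of 16 cases. The difference was -0.84 without IMN replicate 6, 1 of the 8, and -0.92 with marker scores as covariates. Without the striatum-rich libraries it was -0.91, with an unadjusted *p* above 0.05. *Htr1a*, the autoreceptor of serotonin neurons that target neurons carry too, had -0.48, *Htr2c* -0.25 and *Htr1b* 0.23.

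Receptors that tricyclics occupy lay above 0 in 6 of 12 cases, and none had an unadjusted *p* under 0.05. The histamine receptor *Hrh1* differed by -0.28 (-1.3 to 0.75), the muscarinic receptor *Chrm1* by 0.23 (-0.42 to 0.87) and the adrenergic receptor *Adra1a* by -0.24 (-0.96 to 0.47). The 7 other proteins reported to bind antidepressants, among them acid sphingomyelinase *Smpd1*, lay between -0.48 and 0.16. *Maoa*, which breaks down monoamines, measured 20.1 ± 5.26 TPM with FLX and 21.5 ± 7.24 TPM with IMN (SD, n = 8 each). *Th*, the enzyme of catecholamine synthesis, ran from 0 to 7.37 TPM with FLX and from 0 to 26.2 TPM with IMN. Transmitter receptor subunits had no member at an unadjusted *p* under 0.05. Above 0 lay 3 of 14 GABA-A, 1 of 16 AMPA, NMDA and kainate and 0 of 5 glycine receptor subunits, beside 47.1% of all genes. With marker scores as covariates the counts were 4 of 14, 4 of 16 and 0 of 5. In WT mice they were 9 of 14, 4 of 16 and 4 of 5, beside 60.5% of all genes. Members of such lists are not separate observations. *Gria1* differed by -0.12 (-0.50 to 0.26) and *Grin2b* by -0.23. The 18 tested neuropeptide genes had a median of -0.18, with *Npy* at -0.17 and *Pdyn* at 0.45.

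**Figure D3:**
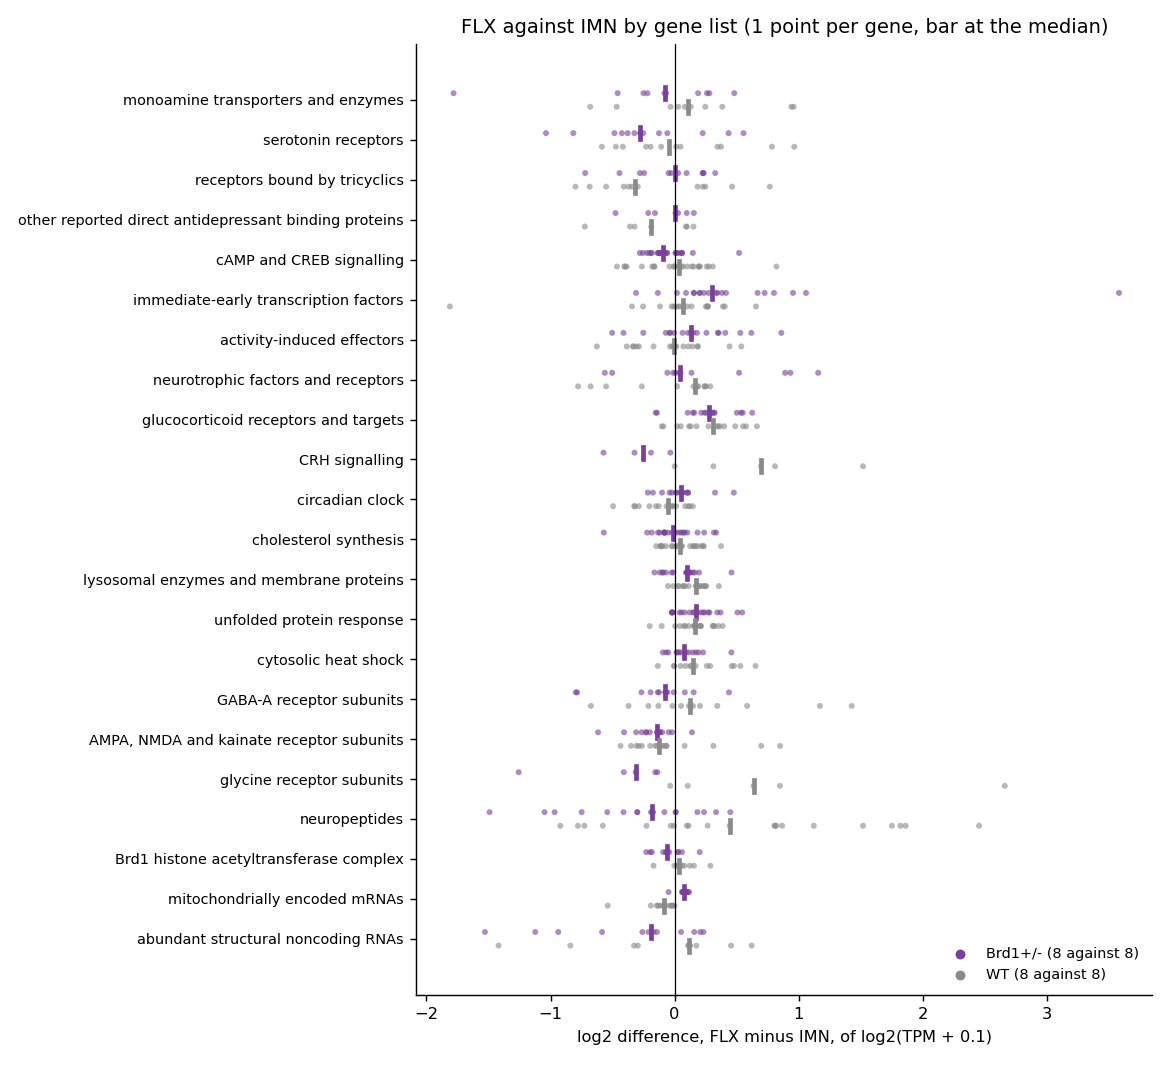
Log2 difference between FLX and IMN (horizontal axis) for each gene of 22 functional lists in *Brd1*+/- and WT mice, 1 point per gene, with a bar at each list's median. In *Brd1*+/- mice the highest list medians are those of immediate-early transcription factors (0.31) and of glucocorticoid receptors and targets (0.28), and no gene was called.

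Glucocorticoid receptors and targets, genes that bind or respond to corticosterone, lay above 0 in 14 of 16 cases in *Brd1*+/- mice (median 0.28) and in 14 of 16 in WT mice (median 0.31), and these comparisons share no library. Of all genes, 47.1% and 60.5% lay above 0. Oligodendrocyte markers lay above 0 in 8 of 8 cases in both genotypes (medians 0.25 and 0.30). Choroid plexus genes did in 5 of 8 cases in *Brd1*+/- mice (median 0.18) and in 7 of 7 in WT mice (median 0.75). Members of such lists are not separate observations, and the omissions and covariates given here are for *Brd1*+/- mice only. In *Brd1*+/- mice the median of the list was 0.131 without FLX replicate 4 and 0.115 without FLX replicate 6, the punches with the highest oligodendrocyte sums, 0.18 with marker scores as covariates and 0.24 without the striatum-rich libraries. It had 14 of 16 genes above 0 in each of these. *Sult1a1*, a sulfotransferase, measured 23.9 ± 4.8 TPM with FLX and 19.1 ± 3.95 TPM with IMN (SD, n = 8 each). The difference was 0.32 (0.0015 to 0.64), and 0.25 without IMN replicate 6. Its unadjusted *p* rose above 0.05 in 11 of 16 single omissions, that one included. *Fkbp5*, a co-chaperone of the glucocorticoid receptor, had 0.25 (-0.05 to 0.56), *Sgk1* 0.30 and *Tsc22d3* 0.16. Unfolded protein response genes, which serve protein folding in the endoplasmic reticulum, lay above 0 in 16 of 20 cases (median 0.17), and in 18 of 20 in WT mice (median 0.17), beside the same 47.1% and 60.5% of all genes. Without FLX replicate 8, the punch richest in choroid plexus, the *Brd1*+/- median was 0.0879, with 14 of 20 above 0, and with marker scores as covariates it was 0.13. *Pdia4*, a disulfide isomerase, had 0.51 (0.0017 to 1.01), with its top value, 98.9 TPM, in FLX replicate 8. It was 0.31 without FLX replicate 8, 0.42 with marker scores as covariates and 0.43 without the striatum-rich libraries, and 11 of 16 single omissions took its unadjusted *p* above 0.05. *Hspa5*, the chaperone BiP, had 0.37 (-0.17 to 0.92).

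FLX and IMN are both cationic amphiphilic drugs, which gather in lysosomes. Of 18 lysosomal genes, 11 lay above 0 and 1 was higher with FLX at an unadjusted *p* under 0.05. Over all genes the shares were 47.1% and 1.28%. In WT mice 16 of 18 lay above 0, beside 60.5% of all genes, and 0 were under 0.05. The 1 higher gene was *Hexa*, a hexosaminidase subunit, at 62.4 ± 3.79 TPM with FLX and 56.3 ± 3.83 TPM with IMN (SD, n = 8 each). Its difference was 0.15 (0.02 to 0.28), and 5 of 16 single omissions took its unadjusted *p* above 0.05. The protease gene *Ctsd* had 0.12 (-0.22 to 0.46) and the phospholipase gene *Pla2g15* 0.09 (-0.14 to 0.33). None of 22 cholesterol synthesis genes had an unadjusted *p* under 0.05, and their median was -0.01, with *Hmgcs1* at 0.10, *Sqle* at -0.12 and *Dhcr7* at -0.02. Clock genes (median 0.05 over 16), cytosolic heat shock genes (0.07 over 14) and mitochondrially encoded mRNAs (0.08 over 13) held none at that threshold. *Per1*, a clock gene that glucocorticoids induce, differed by 0.11 (-0.13 to 0.35) and *Hspa1a*, an inducible HSP70, by -0.09. The 4 tested genes of CRH signalling lay between -0.57 and -0.03.

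The genes with the smallest *p*-values are given by direction, none of them called. Among protein-coding genes higher with FLX the first was *Ptms*, parathymosin, a small acidic nuclear protein (ENSMUSG00000030122, chromosome 6, 124913681 to 124920103, minus strand). It ranged from 432 to 764 TPM with FLX (median 574) and from 245 to 542 TPM with IMN (median 340). Of the IMN libraries, 3 reached into the FLX range. Means were 605 ± 114 TPM with FLX and 367 ± 110 TPM with IMN (SD, n = 8 each), with a log2 difference of 0.75 ± 0.17 (SE; interval 0.39 to 1.12; limma adjusted *p* = 0.9997), and 372 ± 159 TPM in vehicle mice. In WT mice the sign was opposite, -0.58, and the difference between genotypes was 1.34 (0.67 to 2.01; limma adjusted *p* = 0.996). *Rrm2*, a ribonucleotide reductase subunit, ranged from 0.596 to 2.51 TPM with FLX (median 1.41) and from 0.262 to 1.94 TPM with IMN (median 0.358), a difference of 1.38 (0.63 to 2.13). *Upk1b*, a uroplakin, ranged from 0.657 to 10.1 TPM with FLX (median 5.06) and from 0 to 4 TPM with IMN (median 0.673), a difference of 2.44 (0.97 to 3.91). The other 8 protein-coding genes named on this side, besides *Prkcd*, lay between 0.22 and 2.30: *Aqp9*, *Crybb1*, *E2f5*, *Hist2h2ab*, *Kdm5c*, *Map4k5*, *Senp6* and *Wbp1l*. Of these, *Kdm5c* encodes a histone H3 lysine 4 demethylase, *Senp6* a SUMO protease, *E2f5* a cell cycle factor and *Hist2h2ab* a histone.

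Among protein-coding genes lower with FLX was *Gpx1*, the glutathione peroxidase that clears hydrogen peroxide (ENSMUSG00000063856, chromosome 9, 108338903 to 108340343, plus strand), which ranged from 41.7 to 74.3 TPM with FLX (median 50.4) and from 49.6 to 113 TPM with IMN (median 85.1). Above the FLX maximum lay 5 IMN libraries. Means were 55.7 ± 12 TPM with FLX and 86.1 ± 22.3 TPM with IMN (SD, n = 8 each), a difference of -0.61 ± 0.17 (SE; interval -0.97 to -0.25; limma adjusted *p* = 0.9997). *Skap1*, an adaptor known from T cells, had medians of 0.0869 and 0.937 TPM and was listed at 0 in 4 FLX libraries. *H2afz*, the histone variant H2A.Z, measured 96.2 ± 14.3 TPM with FLX and 128 ± 25.1 TPM with IMN (SD, n = 8 each), a difference of -0.40 (-0.66 to -0.14). *Golga4*, a golgin, differed by -0.36, *Mkln1*, which encodes muskelin, by -0.71 and *Ciao1*, a factor of iron-sulphur protein assembly, by -0.21. *Ptrhd1*, *Ttc39c*, *Hoga1*, *Hmgxb4*, *Arl6ip6* and *Tceal3* lay between -0.87 and -0.41.

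**Figure D4:**
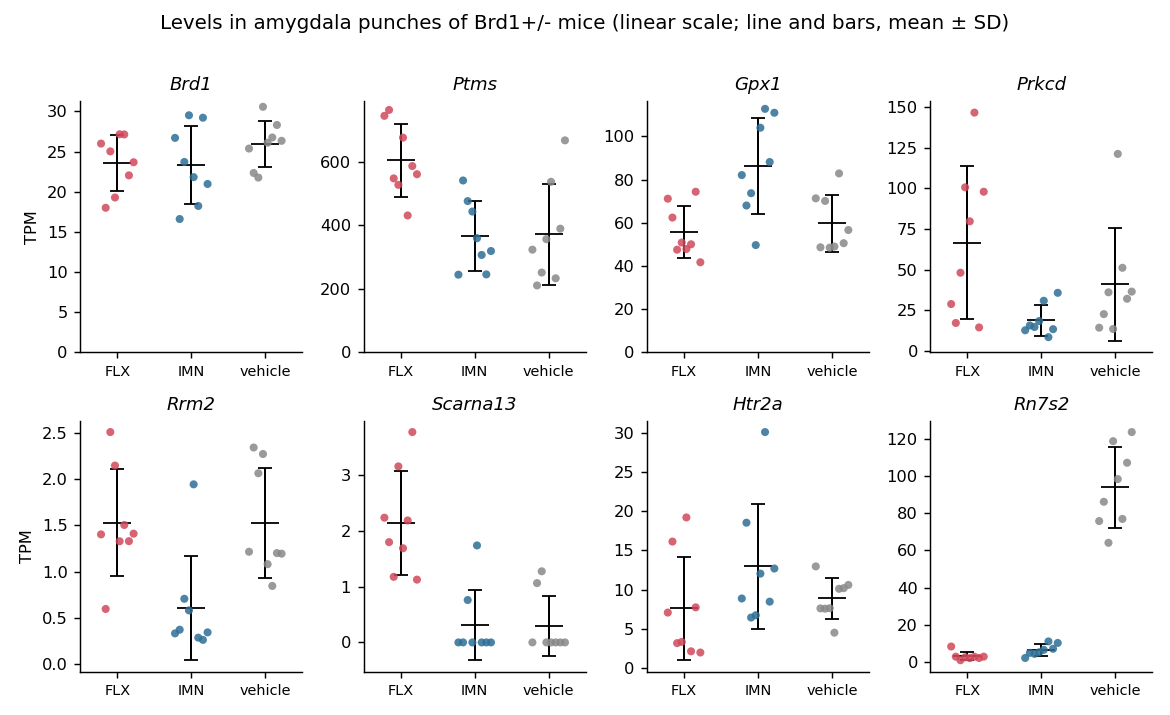
TPM (linear axis) of *Brd1* and 7 genes named in the text in *Brd1*+/- FLX, IMN and vehicle libraries, 8 points a group, with mean and SD as lines. The *Brd1* means lie close, *Prkcd* and *Ptms* have their highest FLX or IMN values with FLX, and *Gpx1* has its highest with IMN.

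For 3 genes, chosen after their values were seen, the groups of 8 did not overlap, with 1 higher (0.00422% of genes tested) and 2 lower with FLX (0.00843%). Of the 12870 arrangements of 8 against 8 libraries, a fraction of 0.0001554 separates the groups fully in either direction. Over 23724 genes, 3 is therefore near the count that alike groups would give. *Aqp9*, a water and glycerol channel, ran from 0.993 to 2.78 TPM with FLX and from 0.711 to 0.97 TPM with IMN. *Cdkn2d*, a cell cycle inhibitor, ran from 34.1 to 51.5 and from 51.8 to 60 TPM. *Gm47308*, annotated as a miRNA gene, ran from 3.55 to 5.44 and from 5.48 to 110 TPM. The limma adjusted *p* = 0.9997 for each.

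Noncoding and pseudogene entries made up 57 of the 109 genes at an unadjusted *p* under 0.01 (52.3%), against 35.8% of the genes tested. The smallest *p* belonged to *Scarna13* (ENSMUSG00000088789, chromosome 12, 105031075 to 105031349, minus strand), a small Cajal body RNA of the class that guides modification of spliceosomal RNA. It was listed between 1.13 and 3.78 TPM in the FLX libraries (median 2) and at 0 in 6 of 8 IMN libraries, with 0.761 and 1.74 TPM in the others. The log2 difference of 3.47 ± 0.61 (SE; limma adjusted *p* = 0.656) depends on the pseudocount because of those zeros. Without IMN replicate 5, the IMN library with the most, *Scarna13* was the only gene called, with a limma adjusted *p* = 0.00601. In vehicle mice it averaged 0.293 ± 0.545 TPM, in WT mice the drug difference was 1.5, and it shares an exon with *Mir3069* on the same strand.

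*Gm29696*, a processed pseudogene, differed by 1.54 and *Ptrhd1*, with which it shares exons on the same strand, by -0.42. IMN replicates 5 and 8, with the most *Gm29696* of that group (12.3 and 14.5 TPM), had its least *Ptrhd1* (6.01 and 6.31 TPM). Reads in the shared part cannot be assigned to either gene with certainty. *Gm13552*, another processed pseudogene, measured 11.1 ± 1.34 TPM with FLX and 14.8 ± 1.98 TPM with IMN (SD, n = 8 each). *Gm30122*, a lincRNA, differed by 0.68 and *Gm26498*, a small nucleolar RNA gene on chromosome 7, by -1.81.

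Among the named genes were microRNA loci, *Mir6989* with one of the smallest *p*-values and *Mir697* with one direction in both genotypes. Their mature RefSeq sequences are shown so that the loci can be identified, with the seed, bases 2 to 8, in capitals; the 3 seeds differ.
mmu-miR-6989-5p: uUGGGGACagaggcacaggaug
mmu-miR-6989-3p: uGUCCACUgucucuggucccag
mmu-miR-697: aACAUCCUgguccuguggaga
*Mir6989* (chromosome 19, 6346480 to 6346544, inside an intron of *Map4k2*) ranged from 1.29 to 5.77 TPM with FLX (median 2.67) and from 2.89 to 11.8 TPM with IMN (median 7.28), a difference of -1.34 (-2.06 to -0.63). *Mir697* (chromosome 4, 124731694 to 124731802, inside an intron of *Sf3a3*) had medians of 2.17 and 4.37 TPM, a difference of -0.82 (-1.37 to -0.28). These values come from reads over the locus, which may include host transcripts, and do not measure the mature miRNA. Of 12 tested abundant structural RNAs, 4 lay above 0 and 3 were lower with FLX at an unadjusted *p* under 0.05. Over all genes the shares were 47.1% and 1.71%. The 3 were the 7SL copies *Rn7s1* and *Rn7s2*, the RNA of the signal recognition particle, and *Rn7sk*, which restrains an elongation factor. Their differences were -0.94, -1.12 and -0.58. Without the striatum-rich libraries the unadjusted *p* of *Rn7sk* was above 0.05. In WT mice 7 of 11 structural RNAs lay above 0 (median 0.12), and 1 was lower at that threshold. Near-identical 7SL copies share reads and are not separate observations. *Rn7s2* ran from 0.955 to 8.33 TPM with FLX and from 2.16 to 11.1 TPM with IMN, so the groups overlapped.

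WT mice given the same drugs and doses, 8 against 8 libraries that share none with the *Brd1*+/- groups, show whether the differences recur. There 0 of 23501 genes were called (0%), and 1123 (4.78%) had an unadjusted *p* under 0.05. Across 22894 genes tested in both genotypes the differences had a Pearson *r* of -0.046, a description across genes that are not independent. Of 100 genes at an unadjusted *p* under 0.01 in *Brd1*+/- mice and tested in WT, 47% had the same sign in WT, and their median difference, counted in the *Brd1*+/- direction, was 0.87 in *Brd1*+/- and -0.02 in WT mice. At an unadjusted *p* under 0.05 in both genotypes stood 47 genes, 17 of them with the same direction. Of the latter, the zinc-finger gene *Zbtb40* had 0.43 in *Brd1*+/- and 0.42 in WT mice, the zinc-finger gene *Zscan12* 0.35 and 0.46, and *Sdf4*, a calcium-binding Golgi protein, -0.46 and -0.49. These genes were picked for passing in both genotypes with one direction, so their like values follow from the choice. Single omissions took the unadjusted *p* in *Brd1*+/- mice above 0.05 in 11 cases for *Zscan12*, 7 for *Sdf4* and 0 for *Zbtb40*.

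Whether the drug difference depends on genotype was tested directly in 1 fit of the 4 drug groups. Of 26162 genes 0 were called (0%), with a smallest limma adjusted *p* of 0.282, and 1115 (4.26%) had an unadjusted *p* under 0.05. *Malat1*, an abundant nuclear RNA, measured 281 ± 59.7 TPM with FLX and 253 ± 62.9 TPM with IMN (SD, n = 8 each) in *Brd1*+/- mice and 228 ± 70.6 and 398 ± 68.5 TPM in WT mice. Its drug differences of 0.16 and -0.84 differed by 1.00 (0.51 to 1.49; limma adjusted *p* = 0.996). The median standard error of this contrast was 0.37 log2 units, against 0.24 for FLX against IMN in *Brd1*+/- mice.

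**Figure D5:**
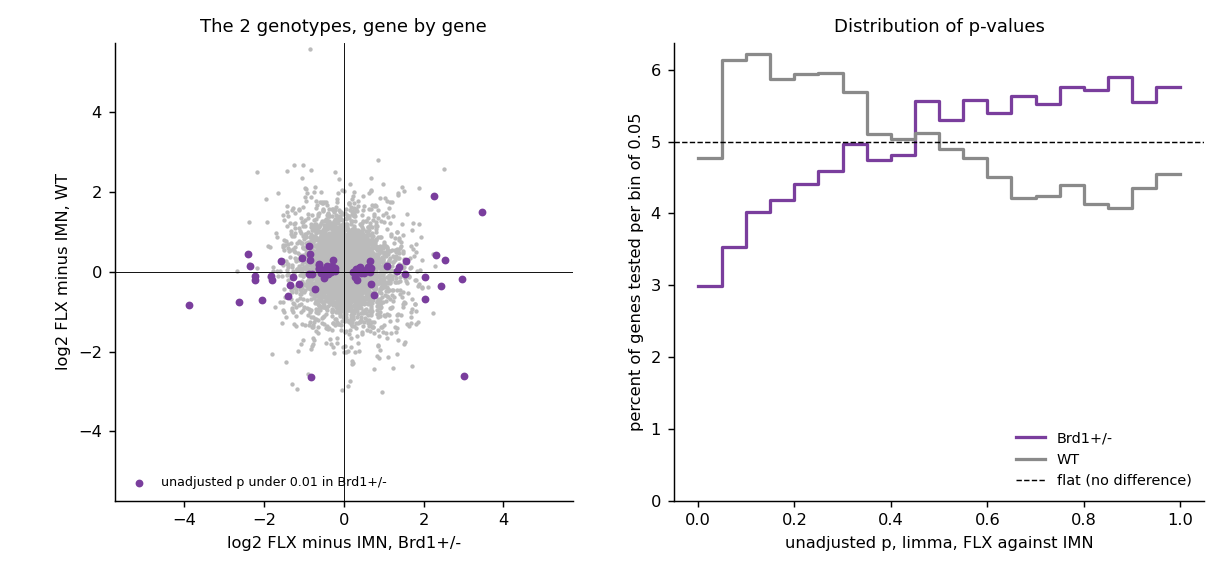
Left, FLX-IMN log2 difference in *Brd1*+/- (horizontal) and WT mice (vertical), 1 point per expressed gene, with those at an unadjusted *p* under 0.01 in *Brd1*+/- in colour; right, percent of tested genes per bin of unadjusted limma *p* in both genotypes, with a flat distribution dashed. The coloured points centre near 0 in WT, and the lowest bin holds 2.99% of genes in *Brd1*+/- and 4.78% in WT mice.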

How the data were processed

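RNA from punches of the right amygdala was sequenced, 1 library per mouse. Per the study's methods the authors made TruSeq libraries, aligned single-end reads to GRCm38 with HISAT2 2.1.0 and quantified Ensembl genes with StringTie 1.3.4; Trimmomatic and FastQC are named in the submitters' processing notes. The values the authors deposited are TPM per gene, 1 column per library and 52636 genes, with columns scaled to nearly the same sum. TPM retains no depth, so the depth of each sample is unknown beyond the minimum read number that the study's methods state. Strand use in counting is not given in the sources used here. The series' design text names other brain regions; the sample labels say amygdala and were followed.

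Groups, doses and replicate numbers came from the labels. Which mice shared a litter or cage is not given in the sources used here, so *p*-values measure the spread between these mice only. Since TPM is no count, the authors' count test was replaced: log2(TPM + 0.1) was fitted in limma 3.58.1 (R 4.3.3) with a trended eBayes prior on the libraries compared, for genes with at least 0.1 TPM in at least 8 libraries, two-sided, with Benjamini-Hochberg adjustment over all genes tested. Fold changes of low genes on this scale depend on the pseudocount and need not equal the ratio of mean TPM. *Brd1* and *Fos* were also compared with exact permutation tests. The code was tested on simulated data. Symbols and 1-based coordinates came from GENCODE M21 on GRCm38 (52489 of 52636 IDs found); sequences came from RefSeq tables of GRCm38.p6, with promoter entries for 17 of 20 immediate-early transcription factor genes (*Egr1*, *Egr3* and *Ier2* missing).

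Named genes were *Brd1*; called genes, filled up to 12 protein-coding and 3 other genes per direction by smallest unadjusted *p* where the higher group averaged 1 TPM or more; up to 6 per direction with an unadjusted *p* under 0.05 and one direction in both genotypes; and key members of 36 gene lists with up to 4 members at an unadjusted *p* under 0.05. The members and lists were chosen with earlier results of these data known. Alternatives tried were pseudocounts of 0.01 and 1, other filters, median-ratio and quantile scaling, eBayes without trend or robust, array weights, 1 fit of all 48 libraries, a replicate block, a term for the range of sample codes, and leaving out each library. Added after seeing the data were a fit restricted to protein-coding genes with several exons, scores for striatal, oligodendrocyte and choroid plexus markers as covariates, and leaving out libraries with over 8000 TPM of striatal markers.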

Additional observations from a re-analysis of the deposited data

Results flagged for a closer look

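In each group of 8 libraries, the gap between the highest or lowest library and its nearest neighbour was divided by the range of the group on the log2 scale, and ratios above Dixon's 95% critical value were noted. Of 202 groups (101 genes in 2 drugs), 21 passed, where chance passes about 1 in 20, or 10.1. Causes were not tested.

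In FLX replicate 2, a striatum-rich library, *Dhcr7* was low at 19 TPM, next to 34 TPM (ratio 0.576). *Fos* was low at 4.2 TPM, next to 16.1 TPM (ratio 0.571). *H2afz* was high at 128 TPM, next to 100 TPM (ratio 0.574). *Hmgcs1* was low at 60.2 TPM, next to 119 TPM (ratio 0.701). *Rrm2* was low at 0.596 TPM, next to 1.33 TPM (ratio 0.544). *Sqle* was low at 12.4 TPM, next to 40.2 TPM (ratio 0.767).

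In IMN replicate 5, which had the highest thalamic and hypothalamic marker sum, *Chrm1* was low at 15.9 TPM, next to 47.2 TPM (ratio 0.643). *Egr4* was low at 6.11 TPM, next to 16.2 TPM (ratio 0.589). *Npy* was low at 53.3 TPM, next to 152 TPM (ratio 0.59). *Rrm2* was high at 1.94 TPM, next to 0.707 TPM (ratio 0.537).

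In FLX replicate 8, which held the most choroid plexus transcripts, *Cdkn2d* was low at 34.1 TPM, next to 46.6 TPM (ratio 0.759). *Ctsd* was high at 696 TPM, next to 429 TPM (ratio 0.533). *Pdia4* was high at 98.9 TPM, next to 47.6 TPM (ratio 0.53).

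In FLX replicate 4, *Junb* was listed at 0, next to 42.4 TPM (ratio 0.878). *Zbtb40* was high at 9.82 TPM, next to 6.12 TPM (ratio 0.671). In FLX replicate 7, *Hist2h2ab* was low at 0.367 TPM, next to 1.5 TPM (ratio 0.704). *Pdyn* was low at 2.11 TPM, next to 33.6 TPM (ratio 0.612). In FLX replicate 1, *Rn7s1* was high at 8.29 TPM, next to 3.11 TPM (ratio 0.534). In IMN replicate 1, *Sdf4* was low at 58.6 TPM, next to 94.9 TPM (ratio 0.575). In IMN replicate 2, a striatum-rich library, *Bdnf* was low at 0.095 TPM, next to 3.02 TPM (ratio 0.602). In IMN replicate 3, *Th* was listed at 0, next to 3.07 TPM (ratio 0.621).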

How the results depend on the processing

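No gene was called for FLX against IMN in *Brd1*+/- mice under any alternative except 1 omission: over the omission of each library the count ran from 0 to 1, *Scarna13* being called without IMN replicate 5. The count at an unadjusted *p* under 0.05 (709) was 350 with multi-exon protein-coding genes only, where fewer genes were tested, 1457 with marker scores as covariates, 1201 without the striatum-rich libraries, and 554 to 900 over single omissions. In WT mice 0 genes were called over single omissions, and the count at an unadjusted *p* under 0.05 (1123) was 695 with multi-exon genes, 625 without the striatum-rich libraries and 706 to 1754 over single omissions (731, 1754 and 706 without WT IMN replicates 2, 3 and 8). For the difference between genotypes, *Emilin3* was the 1 gene called by eBayes without trend and without WT IMN replicate 7 (0 to 1 over single omissions). Its count at an unadjusted *p* under 0.05 (1115) was 603 with multi-exon genes, 1907 with marker scores and 890 to 1520 over single omissions. The causes of the shifts were not tested. The *Brd1* difference (0.02) ran from -0.0411 to 0.0777 over single omissions, with -0.00662, -0.00645, -0.0411 and -0.022 without FLX replicates 5 and 6 and IMN replicates 2 and 6; the *Fos* difference (0.21) ran from -0.0919 to 0.556, with -0.0919 and -0.00236 without IMN replicates 2 and 6. Of 53 named genes with an unadjusted *p* under 0.05, 39 stayed there whichever library was left out, 35 in every alternative, and 0 reversed. With the replicate number as a block, 0 genes were called, 950 had an unadjusted *p* under 0.05, and the *Brd1* and *Fos* differences were 0.02 and 0.21. The labels do not say whether the numbers pair the mice. Deviations of same-numbered libraries correlated between -0.15 and 0.59, over 0.1 in 3 of 8 pairs. Of the 16 libraries, 4 matched best with their own number, and these values cannot exclude pairing. Depth is known only as a minimum read number for all samples, so the counting error of low genes such as *Scarna13* and *Skap1* cannot be stated.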

Other observations

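Vehicle libraries of *Brd1*+/- mice served above only as a background level, because their sample codes come from another range than those of the drug mice, so that drug and code range cannot be told apart. Values far from both drug groups are given without a test. *Rn7s2* measured 93.8 ± 21.6 TPM in vehicle mice, against 3.08 ± 2.22 TPM with FLX and 6.45 ± 2.99 TPM with IMN (SD, n = 8 each). *Rn7s1* measured 92.9 ± 20.4 TPM in vehicle mice, against 3.22 ± 2.13 TPM with FLX and 5.96 ± 2.35 TPM with IMN (SD, n = 8 each). *Malat1* measured 797 ± 168 TPM in vehicle mice, against 281 ± 59.7 TPM with FLX and 253 ± 62.9 TPM with IMN (SD, n = 8 each). For *Prkcd*, *Npas4* and *Ptms* the vehicle mean (40.9, 8.27 and 372 TPM) lay between those of the drugs.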
